A study of Mus musculus with 24 samples.

Results

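The genes described here are the cytoplasmic translation factors measured in the mouse striatum: the initiation factors, the elongation factors, the release factors, the poly(A)-binding proteins and Tpt1. Members were the rows whose symbol begins with Eif1 to Eif6, Eef1, Eef2, Etf1, Gspt, Pabpc or Tpt1, without the eIF4E-binding proteins, the eIF2α kinases and the Y-linked Eif2s3y, and with a mean of at least 50 raw reads over the 24 libraries. The rule found 58 genes of 24079, out of 66 with a matching symbol. Of the 8 left out, Eif3j1, Eif3j2, Pabpc2 and Pabpc6 were at 0 reads in every library, and Eif4e1b, Pabpc4l, Pabpc1l and Pabpc5 were below the minimum. The highest of these, Pabpc5, had a mean of 17.3 reads, and the lowest member, Eif2b3, had 253 reads. All 58 members passed the filter on low counts in each of the 13 comparisons. The members comprised 5 genes whose mRNAs are known to carry a 5′ terminal oligopyrimidine tract (Eef1a1, Eef1b2, Eef2, Pabpc1 and Tpt1), named tract members below, and 53 others.

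Translation begins when the eIF4F complex (the cap-binding protein eIF4E, the scaffold eIF4G and the helicase eIF4A) and eIF3 bring the small ribosomal subunit, loaded with initiator tRNA by eIF2, to an mRNA. The factor eIF2B recharges eIF2 with GTP, eIF1 and eIF1A keep the scanning subunit accurate, and eIF5 and eIF5B complete the joining of subunits. Elongation factor eEF1A, recharged by the eEF1B complex, brings aminoacyl-tRNA, eEF2 moves the ribosome along, and eRF1 (Etf1) and eRF3 (Gspt1, Gspt2) end the chain. The mRNAs of ribosomal proteins and of several of these factors begin with a C followed by a run of pyrimidines, through which mTOR signalling controls their loading onto ribosomes. rpS6, a protein of the small subunit, is phosphorylated downstream of the same pathway, and in the striatum after many stimuli.

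Mice of a mixed C57Bl/6/Sv129/ICR background, males and females, were wild type or carried a constitutive knockin in which the phosphorylatable serines of rpS6 are alanines in every cell (rpS6P-/-), and the controls were wild-type littermates. No treatment is stated for these samples, and no age is given. From dissected dorsal striatum (DS) and nucleus accumbens (Acb), poly(A)-selected RNA was sequenced from whole lysates (total cytosolic RNA) and from the heavy fractions of sucrose gradients, which hold mRNAs with at least 4 ribosomes. Each of the 8 groups had 3 replicates, each of which pooled mice, and the sources differ on how many. Bulk RNA cannot separate fewer cells of a type from less RNA per cell.

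The tract members are shown here by the stretch of the annotated transcript start that holds their longest run. The comparison with the other members rests on the list of genes known to carry a tract. The runs shown did not define that list, and need not be the terminal tract itself. In each line the capitals mark the longest run of C and T that begins with C, on the sense strand of GRCm38. The first 100 bases of every annotated coding transcript of a gene were searched, and the longest run in any of them was kept.
Eef1a1: tggacgttCTTTTTCgcaacggg
Eef1b2: CTTTTTTTCCCTCagcgctgg
Eef2: tcagcggtCTCTTCCgccgcagc
Pabpc1: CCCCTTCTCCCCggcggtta
Tpt1: tccgcccgCTCCCCCCTCCCCCCgcgcgcc
Eef1a2: cactggttCTCTCCCTCgctccggt
Eif3c: aaCCTTTTCCTCTTCCggcgtcgt
Eif4e: ccgagtggCTTCCCTggctggca
The last 3 are members outside the tract list that recur in the results. The stretches lie at chr9:78481657-78481679 (minus strand) for Eef1a1, chr1:63177130-63177150 (plus) for Eef1b2, chr10:81176638-81176660 (plus) for Eef2, chr15:36608954-36608973 (minus) for Pabpc1 and chr14:75845335-75845364 (plus) for Tpt1, all in the first annotated exon. Those of the other members lie at chr2:181156982-181157006 (minus) for Eef1a2, chr7:126566388-126566411 (minus) for Eif3c and chr3:138526450-138526472 (plus) for Eif4e.

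The run began at base 1 of the annotated transcript that held it in Eef1b2 (13 bases) and Pabpc1 (12 bases). It began at base 16 in Eef2 (7 bases), at base 42 in Tpt1 (15 bases) and at base 54 in Eef1a1 (7 bases). Such runs are common: 88.2% of 20416 genes had a run of at least 5 bases in this window, as had 52 of the 53 other members, all but Eif4a1. A run as long as that of Eef1a1 or Eef2 was present in 57.2% of genes, one as long as that of Pabpc1 in 10.5%, of Eef1b2 in 7.61% and of Tpt1 in 4.16%. The median longest run was 12 bases in tract members, 8 in other members and 7 over all genes. Eif3c, not on the tract list, had a run of 14 bases from base 3, a length reached in 5.63% of genes. The annotated start can differ from the start used in the tissue, so the position of a run says nothing of the cap site here.

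Libraries held 11109431 to 34703044 assigned reads in heavy fractions and 9280589 to 20259509 in whole lysates. All 11 genes of a list of markers of medium spiny neurons, the main striatal neurons, were detected, with summed levels of 4502 to 7982 CPM. CPM are reads scaled to the library's total after that total was adjusted by TMM scaling. Rps6 mRNA ranged from 313 to 448 CPM between group means, which does not check the genotype, since the knockin changes codons. The correlation of log2 CPM over 11979 genes with the other libraries of the same kind had a median of 0.925 to 0.959 in heavy fractions and 0.929 to 0.9546 in whole lysates. The lowest values in heavy fractions were those of replicate 3 of the rpS6P-/- Acb (0.925) and replicate 1 of the wild-type DS (0.936). Several results that rest on these libraries are given with and without them, and others only with them.

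Per kilobase of transcript, Eef1a1, which delivers aminoacyl-tRNA to the ribosome, was the most abundant member in wild-type lysates, with 2276 ± 193 CPM per kb in the Acb and 1760 ± 106 in the DS (SD, n = 3). In the Acb, Tpt1 (480.5 ± 65.3 CPM per kb), the helicase Eif4a2 (399 ± 33.7), Eif1 (352 ± 50.6), the translocase Eef2 (312 ± 29.4) and Eef1a2 (308 ± 18.5), the form of eEF1A typical of neurons and muscle, came next. Eef2 and Eef1a2 differed by less than either SD, while Eif1 differed from both Eif4a2 and Eef2 by less than its own SD but by more than theirs. In the DS the second place was held by Eef1a2 (442 ± 19.3 CPM per kb), followed by Eif4a2 (415 ± 14.9) and Tpt1 (388 ± 35.8). Pabpc4 was the lowest in both regions, at 5.66 ± 0.55 and 5.78 ± 1.34 CPM per kb, against 65.1 ± 4.5 and 64.4 ± 9.7 for Pabpc1, the main cytoplasmic poly(A)-binding protein. Eef1a1, Tpt1 and Eif1 have processed copies in the genome, and Eif1a with Eif1ax, Eif4a1 with Eif4a2 and Gspt1 with Gspt2 are close relatives. How reads that map to several places were counted is not given in the sources used here, so these levels are uncertain.

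With CPM summed, the members as a whole came to 1.35% ± 0.08 of the TMM-adjusted library total in wild-type Acb lysates. In the heavy fractions they came to 1.15% ± 0.05 (SD, n = 3). These percentages are not shares of raw reads, since the adjustment differs between libraries. As a sum, the tract members accounted for the fall, from 0.604% ± 0.052 to 0.333% ± 0.035, while the other members went from 0.747% ± 0.027 to 0.818% ± 0.017. That sum rested mostly on Eef1a1, whose mean went from 4083 to 2059 CPM. Eef2 went from 964 to 478.5 CPM, Pabpc1 from 183 to 69.8, Tpt1 from 562 to 521 and Eef1b2 from 245 to 202. In the wild-type DS the tract members went from 0.496% ± 0.022 to 0.336% ± 0.011 and the others from 0.804% ± 0.013 to 0.948% ± 0.048, in neither case with overlap between the 3 lysates and the 3 heavy fractions. There the means of Eef1a1 (3158 to 1912 CPM), Eef2 (978 to 524) and Pabpc1 (181.5 to 88.1) fell. Those of Tpt1 (454 to 641) and Eef1b2 (185 to 193) rose.

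The comparison of heavy fractions with whole lysates asked which of these mRNAs were found with many ribosomes. Among the tract members, Pabpc1, Eef2 and Eef1a1 were lower in heavy fractions in both regions and both genotypes, by 1.69- to 2.63-fold. Over all members, 19 were higher and 13 lower in heavy fractions of the wild-type Acb (edgeR adjusted p under 0.05), where 13% and 12.9% of all genes tested were called in these directions. Members had a mean of at least 50 raw reads, whereas a gene tested needed only 15 summed over the libraries compared. Shares over all genes, here and below, thus include genes with fewer reads than any member. A higher share of calls among members cannot be read as particular to them. In the wild-type DS 19 were higher and 11 lower (12.8% and 11.5% of all genes), in the rpS6P-/- Acb 9 and 11 (7.7% and 9.5%) and in the rpS6P-/- DS 21 and 14 (13.8% and 14.8%). With a trend on transcript length removed from each library, the same counts were 12 higher and 21 lower, 15 and 14, 8 and 12, and 13 and 19, where 23.3%, 20.1%, 16.3% and 21.2% of all genes were called in either direction. Without heavy replicate 3, the rpS6P-/- Acb had 13 higher and 12 lower members (16.6% of all genes in either direction), and without heavy replicate 1 the wild-type DS had 14 and 11 (19.6%).

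The 4 comparisons share no library. In all 4 of them, 4 members were called higher (Eif1a, Eif2b5, Eif2s2 and Eif4h) and 10 lower (Eef1a1, Eef1a2, Eef1g, Eef2, Eif3a, Eif3c, Eif4b, Eif4g1, Eif4g3 and Pabpc1), against 3.38% and 5.08% of the 14833 genes tested in all 4. In at least 3 of the 4, 19 were higher and 11 lower, against 9.37% and 9.64% of those genes. No member was called higher in 1 comparison and lower in another, and 19 members were called in none, against 54.3% of genes, which include those with few reads. In the rpS6P-/- Acb the calls were the least stable: those of Eif1a, Eif2b5, Eif4b and Eef1a2 were each lost without any single lysate replicate and without heavy replicate 1 or 2, with log2 values of 0.44 to 0.64, 0.40 to 0.61, -0.50 to -0.40 and -0.50 to -0.35. Eif4g3 lost its call there without lysate replicate 3 or heavy replicate 1 or 2 (-0.60 to -0.55), and 13 members were called in all without any single lysate replicate or without heavy replicate 2. The share of all genes called in these fits was not worked out, so a fall particular to members cannot be read from this count.

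Pabpc1, which coats the poly(A) tail, was at 178.6, 173.6 and 197.5 CPM in wild-type Acb lysates and at 77.6, 77.5 and 54.1 CPM in the matching heavy fractions. It was at 208, 153 and 183 CPM in wild-type DS lysates and at 94.1, 84.7 and 85.3 CPM in heavy fractions. Every heavy fraction was below every lysate, and the log2 fold changes were -1.40 (SE 0.16, adjusted p = 4.87e-07) and -1.08 (SE 0.16, adjusted p = 6.85e-06). In rpS6P-/- mice the log2 fold changes were -1.38 in the Acb (SE 0.17, adjusted p = 2.09e-06) and -1.12 in the DS (SE 0.14, adjusted p = 6.50e-09).

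Eef2, the translocase, was at 968, 871 and 1053 CPM in wild-type Acb lysates and at 488.5, 510.0 and 437 CPM in heavy fractions. In the wild-type DS it was at 949, 992 and 993 CPM in lysates and at 513, 580.4 and 479.8 CPM in heavy fractions. It was thus about as far below the lysate in each region, with log2 fold changes of -1.01 (SE 0.13, adjusted p = 3.77e-06) and -0.93 (SE 0.13, adjusted p = 5.86e-06), and of -0.94 and -0.99 in the Acb and DS of rpS6P-/- mice (adjusted p = 5.27e-05 and 4.28e-09).

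Eef1a1 was at 3820, 3955 and 4475 CPM in wild-type Acb lysates and at 2228, 2158 and 1791 CPM in heavy fractions. In the wild-type DS the values were 3304, 3227 and 2942 CPM in lysates and 1902, 1959 and 1875 CPM in heavy fractions. The groups did not overlap, and the log2 fold changes were -0.99 (SE 0.13, adjusted p = 2.63e-06) and -0.76 (SE 0.12, adjusted p = 2.92e-05), with -0.84 and -0.81 in rpS6P-/- mice (adjusted p = 7.39e-05 and 7.41e-08).

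Eef1b2 and Tpt1, the tract members with the shortest coding sequences, did not follow. Eef1b2, an exchange factor for eEF1A, was at 245.6, 220.8 and 267.4 CPM in wild-type Acb lysates against 201, 219 and 186 CPM in heavy fractions (log2 -0.28, SE 0.14, adjusted p = 0.156), and its DS groups overlapped (log2 0.03, SE 0.15, adjusted p = 0.928). It was lower in the rpS6P-/- Acb (log2 -0.49, SE 0.15, adjusted p = 0.025), a call lost without any single lysate replicate or without heavy replicate 2 (log2 -0.53 to -0.48), and was -0.15 in the rpS6P-/- DS (adjusted p = 0.476). Tpt1, an abundant growth-related protein, was at 435, 501.5 and 424 CPM in wild-type DS lysates and at 757, 555 and 612 CPM in heavy fractions. All heavy fractions were above all lysates there (log2 0.47, SE 0.15, adjusted p = 0.0169), and the call was lost without lysate replicate 1 or 3 or heavy replicate 1 (log2 0.32 to 0.44). In the other 3 comparisons Tpt1 was not called, with log2 values of -0.11 (wild-type Acb), -0.34 (rpS6P-/- Acb) and 0.25 (rpS6P-/- DS).

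**Figure D1:**
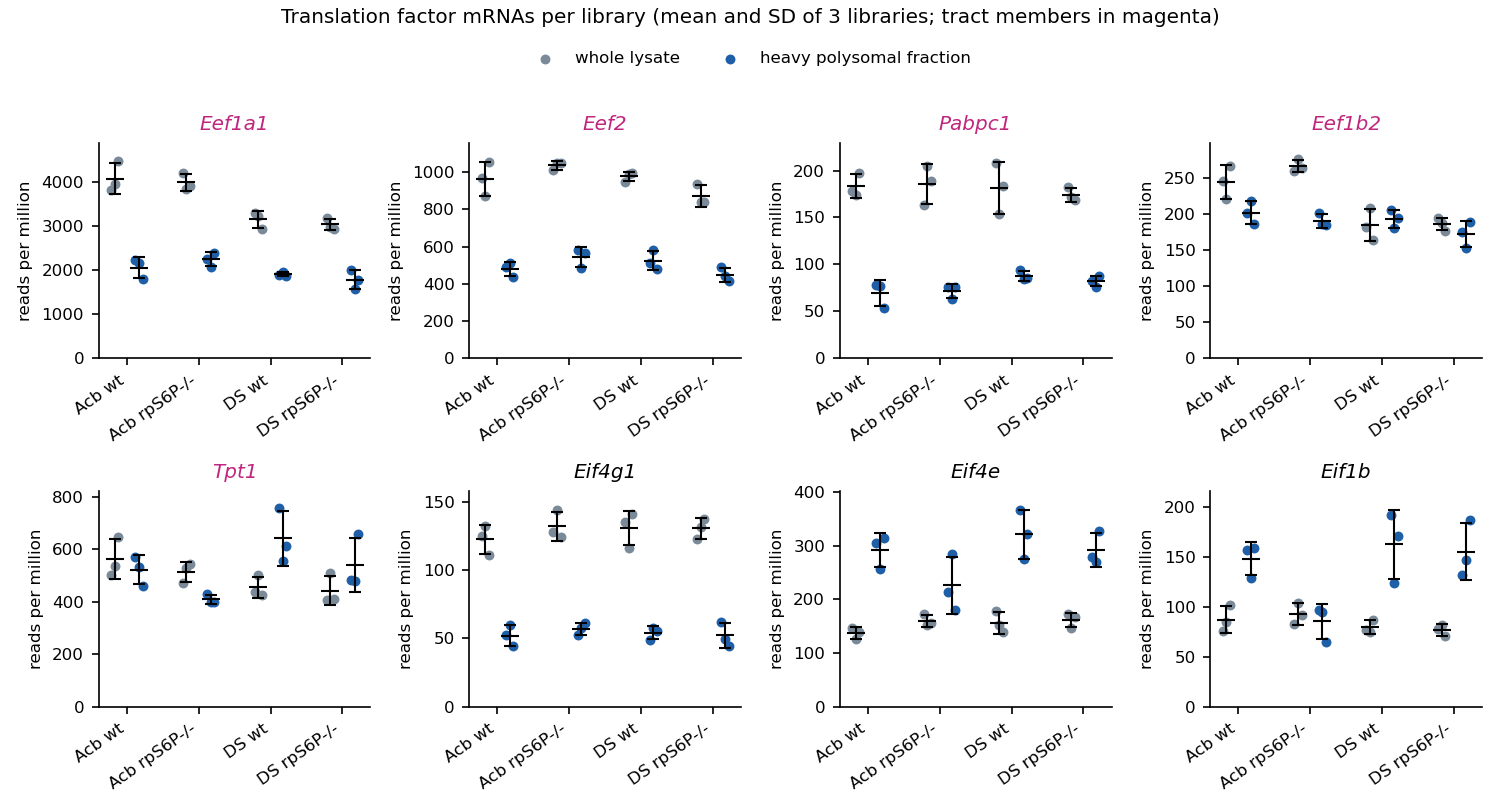
Levels in CPM (vertical axes, linear from 0) of the 5 tract members and of Eif4g1, Eif4e and Eif1b in the 24 libraries, 1 point per library (grey, whole lysate; blue, heavy fraction), by region and genotype, with the mean and SD of 3 libraries in black. Pabpc1, Eef2 and Eef1a1 sit lower in every heavy fraction than in every lysate of the same region and genotype, while Tpt1 in the wild-type DS is higher in heavy fractions (555 to 757 CPM) than in lysates (424 to 501.5 CPM).

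Heavy fractions and lysates of the same number gave 12 pairs. In each, the median log2 ratio of heavy fraction to lysate was lower over the 5 tract members than over the 53 others (by 0.735 to 1.31). Eef1a1, Eef2 and Pabpc1 had a ratio below 0 in 12 of 12 pairs, Eef1b2 in 9 and Tpt1 in 6. The fitted medians of tract and other members were -0.99 and 0.20 in the wild-type Acb, -0.76 and 0.14 in the wild-type DS, -0.84 and 0.13 in the rpS6P-/- Acb and -0.81 and 0.17 in the rpS6P-/- DS, where the median over all genes tested was 0.03, 0.00, 0.01 and 0.03. The difference between tract and other members was thus -1.19, -0.90, -0.97 and -0.97. With a wider tract list of 11 genes, which adds Eef1d, Eef1g, Eif3e, Eif3f, Eif3h and Eif4b, it was -0.66, -0.36, -0.68 and -0.47.

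The 72 cytosolic ribosomal protein genes, the classical mRNAs with such tracts, did not share this pattern in both regions. Their median log2 ratio was -0.52 in the wild-type Acb (2 higher, 45 lower) and -0.87 in the rpS6P-/- Acb (0 higher, 58 lower), but 0.04 in the wild-type DS (12 higher, 9 lower) and 0.05 in the rpS6P-/- DS (12 higher, 14 lower).

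Among the other members, the eIF1 group was higher in heavy fractions, before a trend on coding length was removed (below). All 5 (Eif1, Eif1a, Eif1ad, Eif1ax and Eif1b) were called higher in the wild-type Acb, the wild-type DS and the rpS6P-/- DS, with medians of 0.83, 0.90 and 0.82, and only Eif1a was called in the rpS6P-/- Acb (median 0.25). Eif1b, a close relative of Eif1, was at 75.2, 84.2 and 101.4 CPM in wild-type Acb lysates and at 156, 129 and 159 CPM in heavy fractions (log2 0.77, SE 0.15, adjusted p = 0.000441). In the rpS6P-/- Acb it was at 82.2, 104 and 91.2 CPM in lysates and at 96.3, 94.1 and 65.1 CPM in heavy fractions, which overlapped (log2 -0.13). Eif1, which selects the start codon, did likewise, from 0.47 in the wild-type Acb to -0.10 in the rpS6P-/- Acb. The test of that difference between genotypes is given with translational efficiency.

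Of the 5 members of the eIF2 group, Eif2s2, the β subunit that binds initiator tRNA with the others, was called higher in all 4 comparisons (log2 0.53 to 0.72). It was at 92.2, 92.1 and 91.9 CPM in wild-type Acb lysates and at 149, 155 and 132.5 CPM in heavy fractions. Eif2d, a factor of non-canonical initiation, was higher in 3 comparisons (0.70 to 0.99), with calls in each lost on leaving out single libraries (wild-type Acb lysate replicate 1 or 2 or heavy replicate 3, wild-type DS lysate replicate 3, rpS6P-/- DS lysate replicate 1 or heavy replicate 2, log2 0.49 to 0.80). Eif2s1, Eif2s3x and Eif2a were called in none. Of the 5 subunits of eIF2B, the exchange factor of eIF2, the catalytic Eif2b5 was called higher in all 4 comparisons (0.47 to 0.82) and Eif2b1 in 3 (0.65 to 1.05), with Eif2b2, Eif2b3 and Eif2b4 called in none.

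The 12 subunits of eIF3 went in different directions. The 2 large core subunits Eif3c and Eif3a were lower in all 4 comparisons, by 1.04 to 1.20 and by 0.67 to 1.41 on the log2 scale, while the small subunits Eif3i, Eif3g and Eif3k were each called higher in 3 of 4 (log2 0.31 to 0.80 over the 4). Eif3c was at 162.6, 155 and 140.3 CPM in wild-type Acb lysates and at 62.1, 88.7 and 62.0 CPM in heavy fractions. Its longest run in the transcript start (14 bases, above) was about as long as those of Eef1b2 and Tpt1, whose ratios were higher. Eif3b was called lower in the rpS6P-/- DS alone (-0.45), and Eif3d, Eif3e, Eif3f, Eif3h, Eif3l and Eif3m were called in none.

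In the eIF4 group of 12, Eif4g1 and Eif4g3, both scaffolds of eIF4F, and Eif4b, which stimulates the helicase, were lower in all 4 comparisons. Eif4g1 was at 124.9, 132 and 111 CPM in wild-type Acb lysates and at 52.5, 59.7 and 44.2 CPM in heavy fractions (log2 -1.24, SE 0.16, adjusted p = 2.10e-06), and its log2 values in the 4 comparisons lay between -1.37 and -1.22. Eif4e, the cap-binding protein, was in the opposite direction, at 147, 126 and 138 CPM in wild-type Acb lysates and at 305, 256 and 315 CPM in heavy fractions (log2 1.09, SE 0.14, adjusted p = 3.52e-06). It was called higher in the wild-type DS (1.01) and rpS6P-/- DS (0.82) and not in the rpS6P-/- Acb (0.49). Eif4h, a cofactor of the helicase, was higher in all 4 (0.51 to 0.72), Eif4g2 (an eIF4G relative without the eIF4E-binding site) and the cap-binding relative Eif4e2 in 3, and the helicases Eif4a1 and Eif4a2 in rpS6P-/- mice of both regions (0.62 and 0.46 for Eif4a1, 0.46 and 0.32 for Eif4a2) with values of 0.37 and 0.33, and 0.30 and 0.26, in wild-type mice. The call of Eif4a1 in the rpS6P-/- Acb was lost without lysate replicate 1 (0.53). Eif4a3, Eif4e3 and Eif4enif1 were called in none.

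Eif5a, which helps ribosomes past difficult peptide bonds, was called higher in 3 comparisons (0.68 to 0.81), and Eif6, which binds the large subunit, in 3 (0.56 to 0.99). Eif5b was called lower in the wild-type Acb (-0.77) and rpS6P-/- DS (-0.43), while Eif5 was called in none. In the eEF1 group Eef1a2 was lower in all 4, at 676, 651 and 600.4 CPM in wild-type Acb lysates against 341, 459.8 and 284 CPM in heavy fractions (log2 -0.83, SE 0.15, adjusted p = 0.000186). Eef1g, a subunit of eEF1B, was also lower in all 4 (-0.91 to -0.39), though its call in the wild-type DS was lost without lysate replicate 1, 2 or 3 or heavy replicate 2 or 3 (-0.45 to -0.34). Eef1e1, which belongs to the multisynthetase complex, was higher in 3 comparisons (0.78 to 0.88), and Eef1d in none. Of the release factors, Gspt1 was lower in 3 comparisons (-0.78 to -0.50) and Gspt2 in 2 (-0.87 and -0.65), with the call of Gspt1 in the wild-type DS lost without lysate replicate 1 or heavy replicate 3 (-0.44 and -0.41) and that of Gspt2 in the rpS6P-/- DS without lysate replicate 1 or heavy replicate 1 or 3 (-0.67 to -0.28), while Etf1 was called only in the rpS6P-/- Acb, where it was higher (0.66). The call of Etf1 was lost without lysate replicate 2 or 3 (0.59 and 0.54). Pabpc4 and Eef2k, the kinase of eEF2, were called in none.

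**Figure D2:**
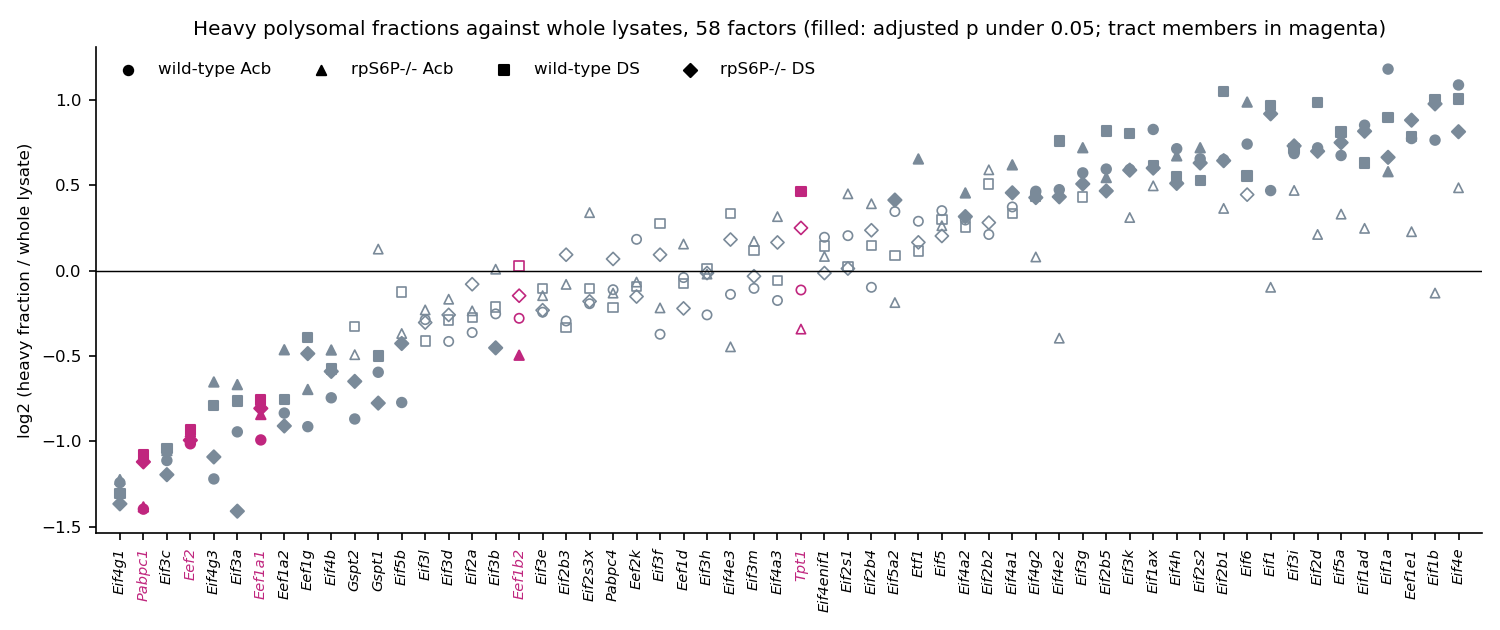
Log2 fold change of heavy fraction over whole lysate (vertical axis) for the 58 members (horizontal axis, ordered by their median) in the 4 combinations of region and genotype (symbols), with filled symbols for an adjusted p under 0.05 and tract members in magenta. The 10 members lower in all 4 comparisons (between -1.41 and -0.39) lie below 0 towards the left, and the 4 higher in all 4 (between 0.47 and 1.18) lie above 0 towards the right.

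The ratio of heavy fraction to lysate varied with coding length, across members as across all genes. Spearman's rho between the 2 was -0.67, -0.72, -0.43 and -0.76 over the 58 members in the wild-type Acb, wild-type DS, rpS6P-/- Acb and rpS6P-/- DS, and -0.46, -0.50, -0.25 and -0.55 over all genes with a coding length; genes share libraries and are not independent replicates. The 26 other members with a coding sequence below their median of 1287 bases had median log2 values of 0.58, 0.55, 0.35 and 0.51, and the 27 longer ones -0.29, -0.22, -0.13 and -0.23. Eif4e has 651 coding bases and Eif1b 339, while Eif4g1 has 4800 and Eif3c 2733. The tract members have 516 (Tpt1), 675 (Eef1b2), 1386 (Eef1a1), 1908 (Pabpc1) and 2574 (Eef2).

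With a trend on coding length removed from each library, an alternative chosen after seeing the data, 7 members were higher and 15 lower in the wild-type Acb, 10 and 9 in the wild-type DS, 6 and 11 in the rpS6P-/- Acb and 8 and 11 in the rpS6P-/- DS, where 16.7%, 15.2%, 12.7% and 15.7% of all genes were called in either direction. In all 4 comparisons 9 members were then lower (Eef1a1, Eef1a2, Eef1b2, Eef1g, Eef2, Eif3c, Eif4b, Eif4g1 and Pabpc1) and 1 was higher (Eif2b5, 0.60 to 1.10), against 2.75% and 1.58% of the genes tested in all 4. Eef1a1 was then between -1.06 and -0.77, Pabpc1 between -1.40 and -0.88 and Eef2 between -0.79 and -0.55. Eef1b2, called in 1 comparison before and positive in the wild-type DS, was then between -0.70 and -0.44, and Tpt1, positive in both DS comparisons before, was between -0.53 and -0.04 with 1 call. Eif4e was higher in 3 comparisons (0.30 to 0.66 over the 4). Of the eIF1 group, Eif1a and Eif1b were called in 2, Eif1 and Eif1ax in 1 and Eif1ad in none. In the rpS6P-/- DS, where the whole group had been called before, no gene of it was. The medians of tract and other members were -0.72 and 0.05, -0.55 and 0.12, -0.79 and 0.12, and -0.61 and 0.08. Those of ribosomal protein genes were -0.85, -0.40, -0.89 and -0.48, negative then in the DS too.

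**Figure D3:**
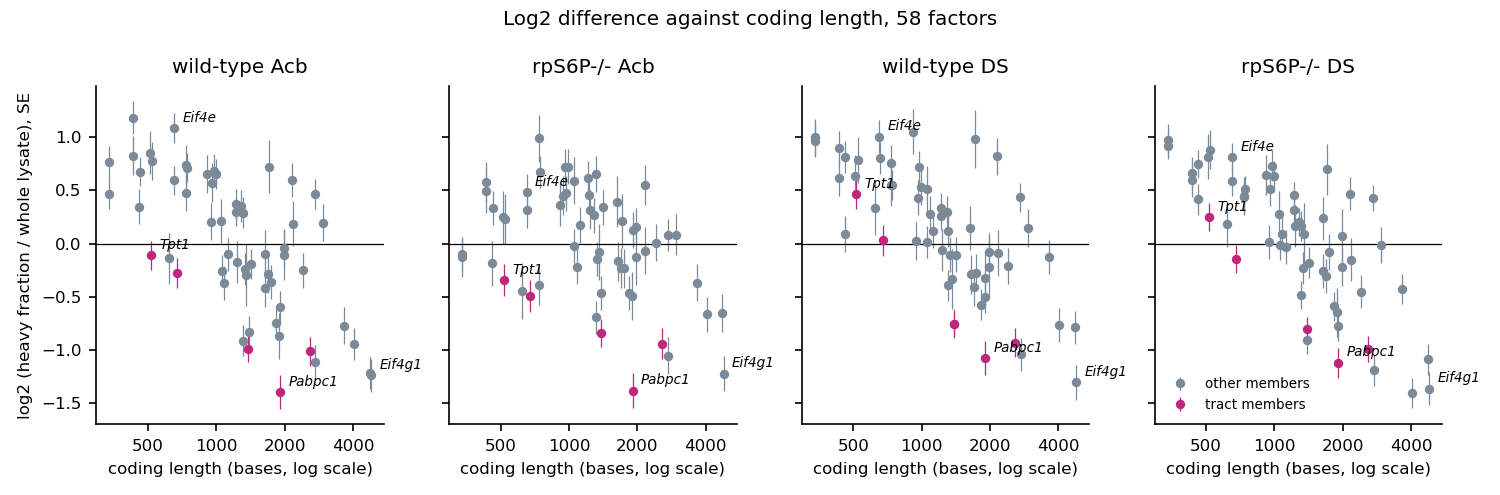
Log2 fold change of heavy fraction over whole lysate (vertical axis) against coding length in bases (horizontal axis, log scale) for the 58 members in the 4 combinations of region and genotype, with standard errors as bars and tract members in magenta. The points fall with coding length in each panel (rho -0.43 to -0.76), and Eef1a1, Eef2 and Pabpc1 lie at -0.76 or below in all 4.

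The levels of 7 pairs of close relatives were set against each other. The log2 ratio of Pabpc1 over Pabpc4 per kilobase was 3.53 ± 0.14 in wild-type Acb lysates and 2.23 ± 0.12 in heavy fractions (SD, n = 3). That of Eif4g1 over Eif4g2 was -1.72 ± 0.10 in lysates and -3.42 ± 0.36 in heavy fractions. That of Eef1a1 over Eef1a2 was 2.88 ± 0.21 and 2.75 ± 0.26, that of Eif4a1 over Eif4a2 was -1.065 ± 0.037 and -1.001 ± 0.212, and that of Gspt1 over Gspt2 was 1.83 ± 0.45 and 2.11 ± 0.19, each pair of values closer than its larger SD. The ratio of Eif1 over Eif1b was 2.07 ± 0.04 in lysates and 1.77 ± 0.13 in heavy fractions, and that of Eif5a over Eif5a2 was 3.69 ± 0.05 and 4.04 ± 0.26. These ratios were not tested.

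A list of 46 other genes of the pathway (kinases, phosphatases, binding partners, recycling and mitochondrial factors) was read in the same way. In the wild-type Acb 9 were higher and 12 lower (13% and 12.9% of all genes), and in the wild-type DS 9 and 13 (12.8% and 11.5%). The counts were 7 and 5 in the rpS6P-/- Acb (7.7% and 9.5%) and 6 and 14 in the rpS6P-/- DS (13.8% and 14.8%). Gcn1l1, the activator of the eIF2α kinase GCN2, was lower in all 4 (log2 -2.04 to -1.19), as was Larp1 (-0.91 to -0.66), the protein that binds oligopyrimidine tracts and represses their mRNAs. Cyfip1 (-1.22 to -0.94) and Gigyf2 (-1.11 to -0.76), partners of the eIF4E family in repression, were also lower in all 4. Paip2 (0.68 to 1.20), an inhibitor of poly(A)-binding protein, Mcts1 (0.83 to 1.11), a reinitiation factor, and Dhps (0.648 to 1.003), which makes the hypusine of eIF5A, were higher in all 4.

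The comparison of rpS6P-/- with wild-type mice asked whether the loss of rpS6 phosphorylation changed these mRNAs. By edgeR with the filter on low counts, no member passed an adjusted p of 0.05 in any of the 4 comparisons, where 0% of all genes were called in heavy fractions of the Acb, 0.0065% in Acb lysates, 0.044% in heavy fractions of the DS and 0.122% in DS lysates. In heavy fractions of the Acb the count depended on the tool and the filter: DESeq2 called 7 members, against 14.1% of the 7733 genes to which it gave an adjusted p, and edgeR with no filter beyond 1 read called 3, against 3.07% of all genes. At an unadjusted p under 0.05, 10 members were higher and 10 lower in heavy fractions of the rpS6P-/- Acb, as were 10.2% and 11.5% of all genes. In Acb lysates 1 member met it (Eif4e2, log2 0.45, against 2.96% of all genes), in heavy fractions of the DS 1 (Eif5b, -0.40, against 6.42%) and in DS lysates 5 (against 9.07%), namely Eif3a (0.25), Eef2 (-0.18), Eif4h (-0.24), Eif5a (-0.28) and Eif1ad (-0.45).

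In heavy fractions of the Acb, Eif1b was at 156, 129 and 159 CPM in wild-type mice and at 96.3, 94.1 and 65.1 CPM in rpS6P-/- mice. The groups did not overlap, and the log2 fold change was -0.79 (SE 0.18, unadjusted p = 0.000399, adjusted p = 0.0983 by edgeR). Eef1e1 was at 75.1, 49.4 and 66.6 CPM against 35.8, 45.9 and 29.2 CPM (log2 -0.78, adjusted p = 0.101), and Eif1 at 752, 537 and 649 CPM against 514, 417 and 385 CPM (log2 -0.55, adjusted p = 0.116), again without overlap. Eif4g2, with overlap, was at -0.42 (adjusted p = 0.166). All 5 genes of the eIF1 group had a negative value there, from -0.79 to -0.31, and none passed edgeR's test, though DESeq2 called Eif1b and Eif1.

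In the other direction, Eif2s3x, the γ subunit of eIF2, was at 139.7, 150.4 and 139 CPM in wild-type mice and at 193, 218 and 257 CPM in rpS6P-/- mice (log2 0.64, SE 0.16, adjusted p = 0.0987). Eif2b4, a regulatory subunit of eIF2B, was at 18.7, 23.1 and 19.1 CPM against 30.2, 29.4 and 35.4 CPM (log2 0.65, adjusted p = 0.106). Gspt1 was at 81.7, 89.4 and 80.4 CPM against 103.6, 122.7 and 142 CPM (log2 0.55, adjusted p = 0.110). These groups did not overlap, whereas those of Eef1a2 did (log2 0.55, adjusted p = 0.134). DESeq2 called 7 members in this comparison, Eef1a2, Eif2b4, Eif2s3x and Gspt1 higher (0.55 to 0.64) and Eif1, Eif1b and Eef1e1 lower (-0.80 to -0.56), and edgeR with no filter beyond 1 read called Eif1b, Eef1e1 and Eif2s3x. The tract members were at 0.19 (Eef2), 0.13 (Eef1a1), 0.05 (Pabpc1), -0.08 (Eef1b2) and -0.34 (Tpt1, adjusted p = 0.197), with a median of 0.05 against 0.13 for the other members and -0.52 for ribosomal protein genes, of which none was called.

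These genotype differences also varied with coding length. Over the 58 members rho was 0.53 in heavy fractions of the Acb (0.41 over all genes), against -0.03 in heavy fractions of the DS, 0.01 in Acb lysates and 0.16 in DS lysates. The 29 members with a coding sequence below 1299 bases had a median of -0.12 and the 29 others of 0.22 in heavy fractions of the Acb. For single libraries, rho was taken between coding length and the log2 level relative to other libraries, over all genes. It was 0.19 in heavy replicate 3 of the rpS6P-/- Acb, -0.58 to -0.15 in the other heavy fractions and 0.17 to 0.50 in whole lysates. Without replicate 3 the members' rho was 0.46, 5 members were higher and 4 lower at an unadjusted p under 0.05 (10.9% of all genes), and Eif1b was at -0.63 and Eif2s3x at 0.53. With the coding-length trend removed, 9 were higher and 2 lower at that level (16.1% of all genes) and none was called. Eif1b then went from -0.79 to -0.17 (edgeR adjusted p = 0.613) and Eef1e1 from -0.78 to -0.37 (adjusted p = 0.264), Eif2s3x was at 0.54 and Eif2b4 at 0.52, and Eif1 turned to 0.10, Tpt1 to 0.08, Eef1b2 to 0.18 and Pabpc1 to -0.11. The part of coding length in the difference between genotypes was not tested.

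**Figure D4:**
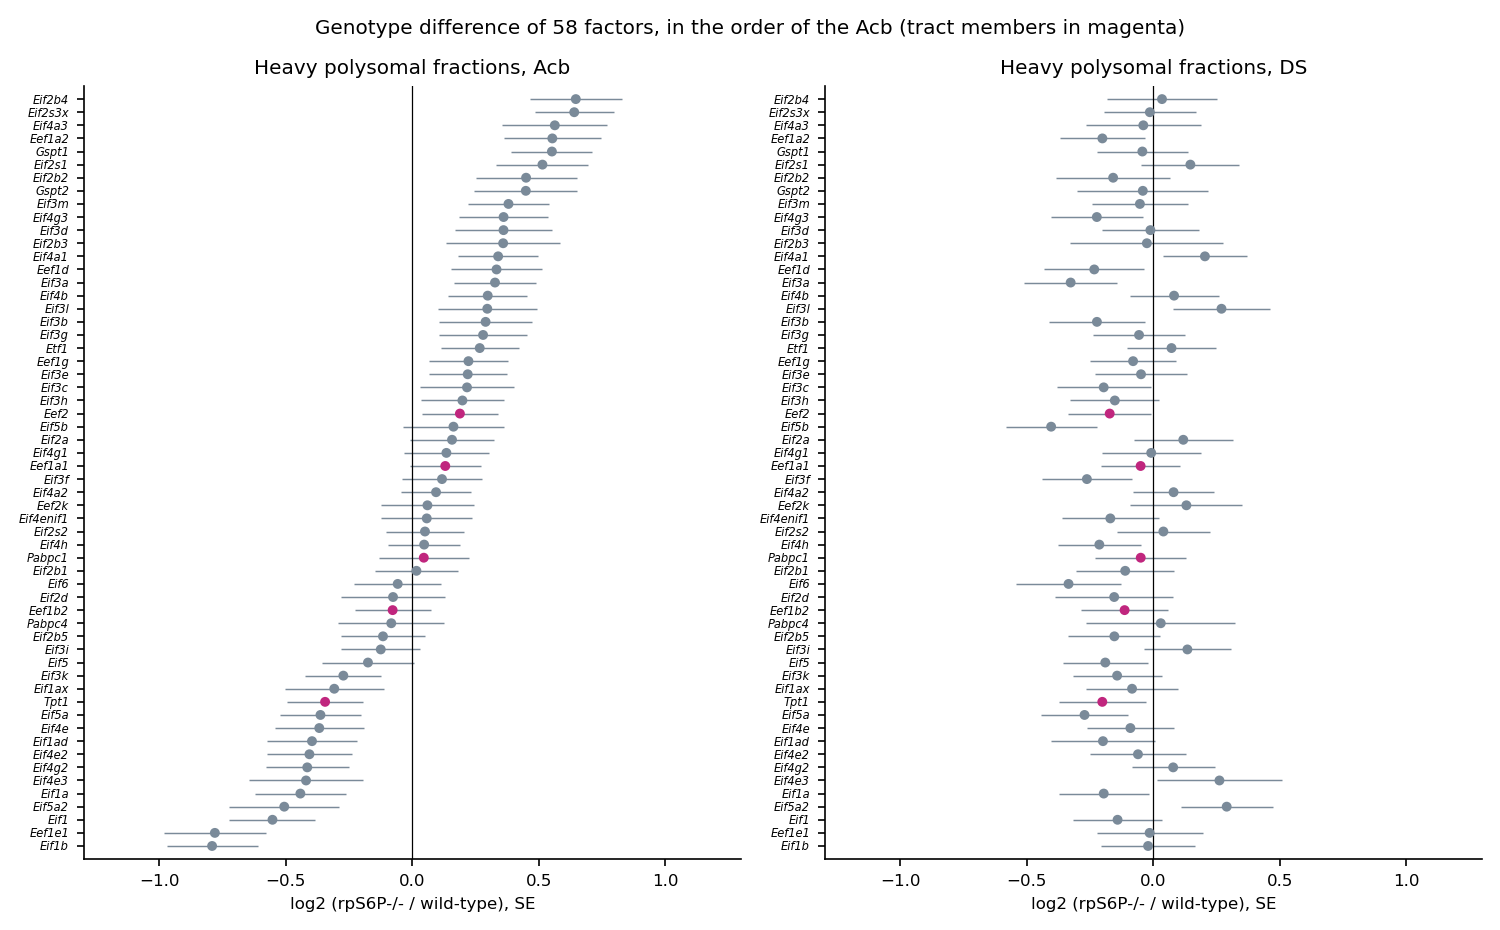
Log2 fold change of rpS6P-/- over wild type (horizontal axis, bars for the standard error) for the 58 members (rows, in the order of the Acb) in heavy fractions of the Acb (left) and the DS (right), with tract members in magenta. Values ran from -0.79 (Eif1b) to 0.65 (Eif2b4) in the Acb, and no point passes an adjusted p of 0.05 by edgeR in either region, while DESeq2 called 7 members in the Acb.

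In the other comparisons of genotype, tract members were all within 0.21 of 0 on the log2 scale. In Acb lysates they lay between -0.13 (Tpt1) and 0.12 (Eef1b2), in heavy fractions of the DS between -0.20 (Tpt1) and -0.05 (Eef1a1 and Pabpc1), and in DS lysates between -0.18 (Eef2) and -0.01 (Eef1b2). The lowest adjusted p of any member was 0.9996 in Acb lysates, 0.772 in heavy fractions of the DS (Eif5b) and 0.355 in DS lysates (Eif5a). In that last comparison Eef2 was at 949, 992 and 993 CPM in wild-type mice and at 937, 839 and 839 CPM in rpS6P-/- mice, without overlap (adjusted p = 0.496).

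Translational efficiency, taken as the difference between genotypes in the ratio of heavy fraction to lysate, was tested as an interaction over the 12 libraries of a region. No member was called in the Acb, nor was any gene (0%), and 3 members were higher and 5 lower at an unadjusted p under 0.05, against 11.9% of all genes in either direction. Gspt1 (0.73, SE 0.22, adjusted p = 0.245), Eif4g3 (0.58) and Eif2s3x (0.54) were on the higher side, and Eif1b (-0.89, SE 0.24, adjusted p = 0.220), Eif4e2 (-0.86), Eif4e (-0.59), Eif1a (-0.59) and Eif1 (-0.56) on the lower. With same-numbered heavy and lysate libraries as a block, the paired fit, Eif1b was called (-0.91, SE 0.24, adjusted p = 0.0288), 1 of 58 members against 0.635% of all genes. Correlations of same-numbered libraries lay within the range of those between different numbers (below). Eif1b was also called with no filter beyond 1 read (-0.89, adjusted p = 0.0336). Without heavy replicate 3 of the rpS6P-/- Acb, and with no block, it was at -0.73 (SE 0.22, adjusted p = 0.811 by edgeR). With the coding-length trend removed Eif1b was at -0.32 (SE 0.20, adjusted p = 0.680) and Eif1 at 0.046. With the transcript-length trend removed Eif1b was at -0.62, or -0.61 with the block as well, and it was called in none of these 3 fits. The fit with both the block and that trend removed called 1 other member. Tract members ranged from -0.22 (Tpt1) to 0.16 (Eef1a1). In the DS no member and no gene was called (0%), and Eif3a alone met an unadjusted p under 0.05 (-0.61, SE 0.21, adjusted p = 0.934), against 4.9% of all genes.

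The effect of genotype in heavy fractions was also compared between regions. No member was called, against 0.00592% of all genes, and 8 were higher and 3 lower in the Acb relative to the DS at an unadjusted p under 0.05, against 6.33% and 7.49% of all genes. Those with the lowest p were Eef1a2 (0.77, SE 0.26, adjusted p = 0.188), Eif3a (0.67), Eif2s3x (0.67) and Gspt1 (0.61) on the higher side and Eif1b (-0.76, SE 0.27, adjusted p = 0.211), Eif5a2 (-0.78) and Eef1e1 (-0.75) on the lower. The tract members lay between -0.13 (Tpt1) and 0.38 (Eef2).

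In wild-type lysates, Eef1a1 and its paralogue Eef1a2 differed between regions in opposite directions. Eef1a1 was at 3820, 3955 and 4475 CPM in the Acb and at 3304, 3227 and 2942 CPM in the DS (log2 0.36, SE 0.09, adjusted p = 0.00292). Eef1a2 was at 676, 651 and 600.4 CPM in the Acb and at 883, 964 and 918 CPM in the DS (log2 -0.53, SE 0.10, adjusted p = 0.000168). Neither pair of groups overlapped. In all, 3 members were higher in the Acb (6.54% of all genes) and 2 lower (6.15%): Eef1g (0.43, SE 0.12, adjusted p = 0.0098) and Eef1b2 (0.39, SE 0.12, adjusted p = 0.0242) were also higher, and Eif4h was lower (-0.32, SE 0.11, adjusted p = 0.0465).

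Several of these calls rested on single libraries. Eef1g lost its call without replicate 3 of either region (0.29 and 0.37), Eef1b2 without replicate 1 or 3 of either region (0.32 to 0.39) and Eif4h without any of Acb replicates 2 and 3 and DS replicates 1, 2 and 3 (-0.35 to -0.28), so that 2 members were called without Acb replicate 3 or DS replicate 3. Shares of all genes called in these fits were not worked out. Tpt1 was at 0.30 (adjusted p = 0.0719), and was called without Acb replicate 1 (0.38, adjusted p = 0.0368). Pabpc1 (0.01) and Eef2 (-0.03) were close to 0. The tract members had a median of 0.30 and the others of -0.09, and 52 of 72 ribosomal protein genes were higher in the Acb, with a median of 0.43.

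Markers of other cells moved with region. All 5 markers of cortical excitatory neurons were lower in the Acb, with summed levels of 73.9 to 155 CPM in wild-type Acb lysates and 726 to 959 CPM in DS lysates. All 7 microglial markers were higher in the Acb (204 to 243 against 104 to 133 CPM), as were 5 of 7 astrocyte markers (2375 to 2898 against 1691 to 1816 CPM) and 4 of 7 oligodendrocyte markers (3617 to 4197 against 2707 to 3411 CPM). Of 4 choroid plexus markers tested 2 were higher, of 11 medium spiny neuron markers 3 were higher and 3 lower, and of 6 endothelial markers 0 were called. Over all genes, 6.54% were higher and 6.15% lower. The part of these cells in the differences between regions was not tested.

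In heavy fractions 1 member differed between regions by edgeR, Eif4g3, at 55.8, 67.5 and 56.0 CPM in the Acb and at 109.2, 94.1 and 87.9 CPM in the DS (log2 -0.64, SE 0.17, adjusted p = 0.0213). No member was higher in the Acb, against 4.72% of all genes, and 3.43% of all genes were lower. The call of Eif4g3 was lost without Acb replicate 1 or 3 or DS replicate 1 (-0.60 to -0.55), so that none was called, while 3 members were called without Acb replicate 2 and 2 without DS replicate 2. For these fits the share of all genes was not worked out. The count was 3, all lower in the Acb, with DESeq2 (11% of all genes in either direction), with its size factors (8.18%), with no filter beyond 1 read (8.82%) and with the transcript-length trend removed (9.29%), and 4 with the coding-length trend removed (10.7%), with Eif4g3 called in each. Eef1a1 was at 0.16 and Eef1b2 at 0.12 in heavy fractions, with overlap between regions, and Eef1a2 was at -0.58 without passing the test.

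**Figure D5:**
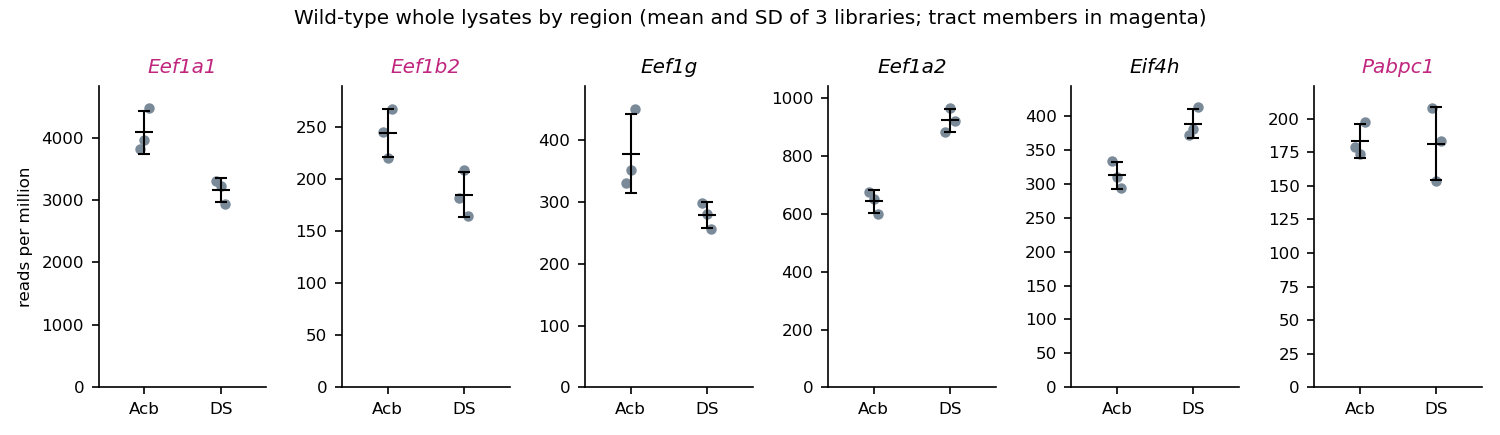
Levels in CPM (vertical axes, linear from 0) of the 5 members that differed between regions in wild-type whole lysates and of Pabpc1, which did not pass the test, 1 point per library with the mean and SD of 3 libraries. Eef1a1 is higher in the Acb (3820 to 4475 CPM) than in the DS (2942 to 3304 CPM), and Eef1a2 is lower (600.4 to 676 CPM against 883 to 964 CPM).

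Of the 46 other genes of the pathway, none was called between genotypes, where 0% to 0.122% of all genes were. Between regions, 2 were higher and 3 lower in Acb lysates, against 6.54% and 6.15% of all genes. In heavy fractions 2 were higher and 0 lower, against 4.72% and 3.43%. Impact, an inhibitor of GCN2 signalling, was higher in the Acb in lysates (0.53, adjusted p = 0.000376) and in heavy fractions (0.57, adjusted p = 0.0466), as was Ppp1r15b, which targets a phosphatase to eIF2α (0.44 and 0.57). Cyfip2 (-0.74), Dohh (-0.71), the last enzyme of hypusine synthesis, and Abcf1 (-0.48) were lower in Acb lysates.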

How the data were processed

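Raw read counts per gene, deposited by the authors as 1 table of 24 libraries, were the only measurement used. Libraries were poly(A)-selected, stranded and sequenced as single reads, with repeated runs because of bacterial reads. Per the labels and the submitters' processing notes, CASAVA 1.8.2, FastQC, TopHat2 2.0.13 with Bowtie2 2.2.3 on mm10 and HTSeq 0.6.1p1 made these counts, read on the opposite strand.

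Counts were tested here in edgeR 4.0.16 (R 4.3.3) with TMM scaling and the quasi-likelihood test, on genes with at least 15 reads summed over the libraries compared, with Benjamini-Hochberg adjustment over all of them at 0.05. Fits used the libraries of the groups compared, without a replicate block. Members and gene lists were chosen with earlier results of these data known. Tract members were named in every comparison, with up to 8 other called members per direction, or up to 4 with the lowest p where none was called. Transcript starts, lengths and coding lengths came from GENCODE M21 on GRCm38. Summaries used Python 3.11.15 and pandas 2.3.3. The fits were tested on simulated data with known changes.

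In the study's methods, input RNA and heavy fractions came from the same lysates, but each replicate combined heavy fractions of more than 1 sample. Same-numbered heavy and lysate libraries were treated as pairs in an alternative fit. The correlations of their deviations from group means were -0.046 to 0.077, against -0.089 to 0.13 between different numbers, both ends of which came from the rpS6P-/- Acb. Same-numbered libraries thus lay within the range of the others. Other alternatives were DESeq2 1.42.0 (its Wald test and its size factors), no filter beyond 1 read, edgeR's filterByExpr, a loess trend (span 0.5) on transcript length removed per library, a wider tract list, and leaving out each library. The removal of a trend on coding length was added after seeing the data. Replicates are pools of mice, so p-values measure the spread between pools.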

Additional observations from a re-analysis of the deposited data

How the results depend on the processing

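Log2 values below changed side of a threshold, sign or size under an alternative; the causes were not tested. The difference between tract and other members in heavy fractions over lysates was negative under every alternative run, and no named member called there was called in the other direction under an alternative. The filterByExpr filter left the number of members called within 1.5 times in 13 of 13 comparisons. For fits without a single library, shares of all genes called are given above where they were worked out. Replicate numbers were used to pair heavy fractions with lysates. Between genotypes and regions they are only numbers, with correlations of -0.31 to 0.33 and -0.033 to 0.24. Between genotypes, 3 pools a group and 9280589 to 34703044 reads a library limit what small differences could be shown.

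With DESeq2's Wald test, the number of members called was 7 (genotype in Acb heavy fractions), 3 (regions in heavy fractions) and 8 (regions in lysates). Eef1b2 was 0.0022 (genotype in DS lysates).

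With DESeq2 size factors, Eef1b2 was 0.0023 (genotype in DS lysates). The number of members called was 3 (regions in heavy fractions).

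With the coding-length trend removed, tract minus other members was -0.76 (wild-type Acb fractions), -0.67 (wild-type DS fractions), -0.69 (rpS6P-/- DS fractions) and -0.015 (genotype by region). The number of members called was 19 (wild-type DS fractions), 19 (rpS6P-/- DS fractions) and 4 (regions in heavy fractions), Eef1b2 was -0.44 (wild-type DS fractions), 0.18 (genotype in Acb heavy fractions) and 0.057 (genotype in DS lysates), Tpt1 was -0.044 (wild-type DS fractions), -0.30 (rpS6P-/- DS fractions), 0.077 (genotype in Acb heavy fractions), 0.014 (genotype in DS lysates), 0.15 (Acb efficiency) and 0.33 (genotype by region), and Eif1 was 0.099 (genotype in Acb heavy fractions) and 0.046 (Acb efficiency). Pabpc1 was -0.11 (genotype in Acb heavy fractions), -0.14 (Acb efficiency), -0.00012 (regions in lysates) and -0.0035 (genotype by region), Eef1a1 was 0.0019 (genotype in Acb lysates), and Eef2 was -0.076 (Acb efficiency).

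With the filterByExpr filter, Eef1b2 was 0.0031 (genotype in DS lysates).

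With the transcript-length trend removed, tract minus other members was -1.01 (wild-type DS fractions). Eef1b2 was -0.20 (wild-type DS fractions) and 0.063 (genotype in DS lysates), Tpt1 was -0.27 (rpS6P-/- DS fractions), 0.048 (genotype in DS lysates), 0.0023 (Acb efficiency) and 0.17 (genotype by region), Eef1a1 was 0.021 (genotype in Acb lysates) and 0.0065 (genotype in DS lysates), and Pabpc1 was -0.040 (Acb efficiency) and -0.00038 (regions in lysates). The number of members called was 3 (regions in heavy fractions).

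With no filter beyond 1 read, the number of members called was 3 (genotype in Acb heavy fractions), 1 (Acb efficiency) and 3 (regions in heavy fractions).

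With the replicate block, Eef1b2 was 0.00038 (genotype in DS lysates). The number of members called was 1 (Acb efficiency) and 5 (regions in heavy fractions).

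With the replicate block and the transcript-length trend removed, tract minus other members was -1.01 (wild-type DS fractions). Eef1b2 was -0.19 (wild-type DS fractions) and 0.068 (genotype in DS lysates), Tpt1 was -0.0032 (wild-type DS fractions), -0.27 (rpS6P-/- DS fractions), 0.043 (genotype in DS lysates), 0.0015 (Acb efficiency) and 0.17 (genotype by region), Eef1a1 was 0.021 (genotype in Acb lysates) and 0.0072 (genotype in DS lysates), and the number of members called was 1 (Acb efficiency, not Eif1b), 6 (regions in heavy fractions) and 8 (regions in lysates). Pabpc1 was -0.023 (Acb efficiency).

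With the wider tract list, tract minus other members was -0.66 (wild-type Acb fractions), -0.36 (wild-type DS fractions), -0.68 (rpS6P-/- Acb fractions), -0.47 (rpS6P-/- DS fractions), 0.13 (genotype in Acb heavy fractions), 0.091 (Acb efficiency) and 0.14 (genotype by region).

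Leaving out single libraries, tract minus other members was -1.297 to -1.06 (wild-type Acb fractions), -0.21 to -0.0015 (genotype in Acb heavy fractions), -0.056 to 0.017 (genotype in DS heavy fractions), -0.0013 to 0.10 (regions in heavy fractions) and -0.20 to -0.00071 (genotype by region). Tpt1 was -0.20 to 0.0013 (wild-type Acb fractions) and -0.15 to 0.033 (genotype in DS lysates), Eef1b2 was -0.051 to 0.12 (wild-type DS fractions), -0.083 to 0.095 (genotype in DS lysates) and -0.043 to 0.11 (genotype by region), and the number of members called was 13 to 25 (rpS6P-/- Acb fractions), 0 to 3 (regions in heavy fractions) and 2 to 5 (regions in lysates). Pabpc1 was -0.11 to 0.13 (genotype in Acb heavy fractions), -0.052 to 0.11 (genotype in Acb lysates), -0.18 to 0.035 (genotype in DS lysates), -0.13 to 0.11 (Acb efficiency), -0.12 to 0.10 (DS efficiency), -0.10 to 0.12 (regions in lysates) and -0.060 to 0.19 (genotype by region), Eef1a1 was -0.077 to 0.042 (genotype in Acb lysates), -0.14 to 0.029 (genotype in DS heavy fractions) and -0.095 to 0.060 (DS efficiency), and Eef2 was -0.081 to 0.048 (DS efficiency) and -0.094 to 0.041 (regions in lysates).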
